A study of Caenorhabditis elegans with 11 samples.

Results

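The comparison described here is that of males with no males in glp-1(e2141) hermaphrodites of Caenorhabditis elegans under utx-1 RNAi. It used 5 of the 11 arrays of the study, chosen by their labels, and all 22548 probe sets that are not array controls. The group with males was glp-1(e2141) hermaphrodites given utx-1 RNAi and kept with wild-type males (n = 2, replicates 1 and 3). The group without males was glp-1(e2141) hermaphrodites given utx-1 RNAi and kept alone (n = 3). The 6 other arrays came from glp-1(e2141) hermaphrodites without RNAi, 3 with males and 3 without, and served to show where the effect of males differed. All worms carried the glp-1 allele. They were at 15 °C as embryos, were put on plates as first-stage larvae, were then kept at 25 °C and were lysed whole on day 8. A plate with males held 250 hermaphrodites and 250 males, and a plate without males held 500 hermaphrodites. The number of hermaphrodites per plate therefore differed along with the presence of males, and both cannot be told apart. No empty-vector RNAi group was named, and the way the RNAi was given is not stated in the sources used here. Replicates are independent experiments per the study's design text, and a further sample with males under utx-1 RNAi gave too little RNA. With 2 arrays against 3 an exact permutation test cannot go below 0.1 one-sided or 0.2 two-sided. The tests therefore rest on limma, which took the spread from all 11 arrays.

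Germ line stem cells at the distal end of the gonad keep dividing through signals received by GLP-1, a Notch family receptor. In glp-1(e2141) worms raised at the restrictive temperature the germ line fails to expand, so that whole-worm RNA comes mostly from somatic cells. In a fertile hermaphrodite the germ cells pass from mitosis through meiosis into growing oocytes, which store maternal RNA and carry the material of the eggshell. UTX-1 removes methyl groups from lysine 27 of histone H3, a mark of silenced genes. The presence of males is known to shorten the life of hermaphrodites. Values are log2 expression levels from RMA, differences are males minus no males on that scale, and each ± is a standard error from limma. The words rose and fell are used for an adjusted p under 0.05, with Benjamini-Hochberg adjustment over all 22548 probe sets.

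At its brighter probe set the RNAi target was lower on all 5 arrays than on any array without RNAi, but not equally so. Its brighter probe set read 9.06 and 8.40 with males, against 6.42, 4.81 and 5.13 without males, and rose by 3.28 ± 0.40 (adjusted p = 0.000114). Without RNAi the same probe set read 11.54 to 13.09 on all 6 arrays. At the dimmer utx-1 probe set the levels were 5.0 and 4.87 with males, against 4.76, 4.69 and 4.41 without males (0.32 ± 0.10, adjusted p = 0.0476). Its call ended in 9 of 12 alternatives, among them the fit without replicate 1 with males (adjusted p = 0.319). Both with-males arrays thus kept more of the brighter signal than any array without males, at levels still below those without RNAi.

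Under utx-1 RNAi 4707 probe sets changed with males, which is 20.9% of those tested. Of these 2671 were higher (11.8%) and 2036 were lower (9.03%). Rises were the larger changes. They had a median of 0.63, and 720 exceeded 1 on the log2 scale (3.19%) and 253 exceeded 2. The falls had a median of -0.49, with 118 below -1 (0.523%) and 7 below -2. The median over all probe sets was -0.03. Replicate 1 with males decided many of the smaller changes, since without it 1588 probe sets were higher and 440 lower. Without replicate 1 without males 1204 were lower. The rises over 1 numbered 651 and the falls over 1 numbered 42 without replicate 1 with males, and 862 and 284 without replicate 3 with males.

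The balance of rises and falls also depended on how the arrays were scaled. Of the calls 56.7% were rises and 43.3% falls in the deposited values. With arrays centred on their median 26.6% were rises and 73.4% falls, with a second quantile normalization 42.7% and 57.3%, and with arrays centred on 246 somatic genes 85.7% and 14.3%. The 246 genes are the muscle, pharynx, intestine, neuron and collagen lists described below, so this centring removes their common shift by construction. Centring on the median moved the median of all probe sets to -0.15, and centring on somatic genes moved it to 0.16, against -0.03 as deposited. The split was 78.3% and 21.7% without replicate 1 with males. Small differences in either direction are therefore relative to the other RNA on the array. In whole-worm RNA fewer cells of a type and less RNA per cell cannot be told apart.

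Genes of germ line stem cells, meiosis and oocytes were higher with males under utx-1 RNAi, and sperm genes, described further on, were not. All 8 defining germ line markers rose, by 0.78 to 5.01, namely pgl-1, glh-1, him-3, htp-3, gld-1, oma-1, rme-2 and cpg-1. Over 6 lists of germ line and cell division genes 132 of 157 genes rose and 0 fell. Among the 17118 genes measured, each by its brightest probe set, 12.4% rose and 9.53% fell. The count was 127 without replicate 1 with males and 130 without replicate 3 with males, and it was 132 or 133 without each array of the other group. It was 131 to 147 under the 3 other scalings.

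The regulators of germ line stem cells and of the entry into meiosis gave moderate rises. Of 14 genes 11 rose and 0 fell, with a median of 0.84. The receptor gene glp-1 read 7.22 and 7.03 with males, against 5.71, 5.97 and 5.77 without males, and rose by 1.31 ± 0.19 (adjusted p = 0.000504). The translational repressor gene gld-1, which acts as germ cells enter meiosis, read 7.46 and 6.73 with males, against 3.11, 3.81 and 3.34 without males. It rose by 3.68 ± 0.24 (adjusted p = 4.14e-07). No array of one group reached the range of the other, as was so upward for 22.1% of all probe sets. The RNA-binding protein gene daz-1, needed for oogenesis, rose by 3.29 ± 0.14 (adjusted p = 5.68e-08). Smaller rises were those of fbf-1, a repressor that maintains stem cells, by 0.68 ± 0.08, and of its partner nos-3, by 0.88 ± 0.12.

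Genes of P granules and germ line small RNA pathways followed the same direction. P granules are the RNA and protein bodies of germ cells. Of 23 genes 15 rose and 0 fell, with a median of 0.78. The Argonaute gene wago-1 read 7.51 and 7.04 with males, against 2.57, 3.24 and 2.90 without males (4.38 ± 0.21, adjusted p = 7.2e-08). The P granule gene deps-1 read 6.06 and 5.68, against 2.42, 2.71 and 2.7 without males (3.26 ± 0.16). The nuclear Argonaute gene hrde-1, which acts in inherited silencing, rose by 1.99 ± 0.17 and the core P granule gene pgl-3 by 1.74 ± 0.15. Among them meg-1, which lies on the X chromosome, rose by 1.84 ± 0.14.

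Meiotic genes rose in 25 of 31 cases and fell in 0, with a median of 1.01. The chromosome axis gene him-3 read 5.91 and 6.08 with males, against 2.73, 3.29 and 2.86 without males (3.04 ± 0.20, adjusted p = 5.27e-07). Its neighbour on the axis, htp-3, read 5.24 and 5.27, against 3.00, 3.23 and 3.04 without males (2.17 ± 0.10, adjusted p = 5.68e-08). The central region of the synaptonemal complex was represented by syp-2, which rose by 1.76 ± 0.12. The gene spo-11, whose product makes the breaks that start recombination, rose by 1.02 ± 0.09 at a dim probe set, which read 3.77 and 3.88 with males, against 2.76 to 2.86 without males.

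RNA-binding proteins of oocytes and early embryos act on stored maternal RNA, and their genes had large rises. Of 20 genes 19 rose and 0 fell, with a median of 3.33. The gene spn-4 read 7.56 and 7.45 with males, against 2.63, 3.16 and 2.74 without males (4.66 ± 0.20). The Pumilio family gene puf-11 read 7.15 and 7.13, against 2.12, 2.79 and 2.49 without males (4.67 ± 0.23). The embryonic determinant gene mex-1 rose by 3.28 ± 0.15. The fate regulator pos-1 read 9.63 and 9.42 with males, against 4.21, 5.1 and 4.62 without males (4.88 ± 0.34, adjusted p = 9.01e-07). Without RNAi pos-1 read 6.24, 5.63 and 5.1 with males, against 4.06, 5.11 and 4.71 without males (1.03, adjusted p = 0.0507).

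Oocyte and eggshell genes came next, with 16 of 19 higher, 0 lower and a median of 3.00. The yolk receptor gene rme-2 read 8.17 and 7.82 with males, against 2.78, 3.28 and 2.90 without males. The oocyte surface gene egg-1, which acts in fertilization, read 7.23 and 7.14, against 2.22, 2.89 and 2.53 without males (4.64 ± 0.21). The eggshell gene cbd-1 read 8.45 and 8.42, against 2.88, 3.15 and 2.85 without males. Its spread within a group was small beside the difference of 5.48. The other 3 genes of the list did not pass.

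Cell division genes rose in 46 of 50 cases and fell in 0, with a median of 1.88. They serve any dividing cell, and which cells gave these rises was not tested. The cyclin gene cyb-3 read 9.69 and 9.45 with males, against 5.69, 5.98 and 5.91 without males (3.71 ± 0.15). The replication helicase gene mcm-7 read 8.96 and 8.48, against 4.55, 5.1 and 4.50 without males (4.0 ± 0.20), and mcm-5 rose by 3.61 ± 0.17. The Aurora B kinase gene air-2 rose by 2.52 ± 0.12. Of 36 histone genes 10 rose and 3 fell, with a median of 0.21, and the largest rises were the linker histone genes hil-5 (3.78 ± 0.23) and hil-4 (3.21 ± 0.22). The centromeric histone gene hcp-3 rose by 2.64 ± 0.20 and the variant gene htz-1 by 1.61 ± 0.15. The 3 histone falls were 1 without replicate 1 without males and 0 without replicate 1 with males.

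**Figure D1:**
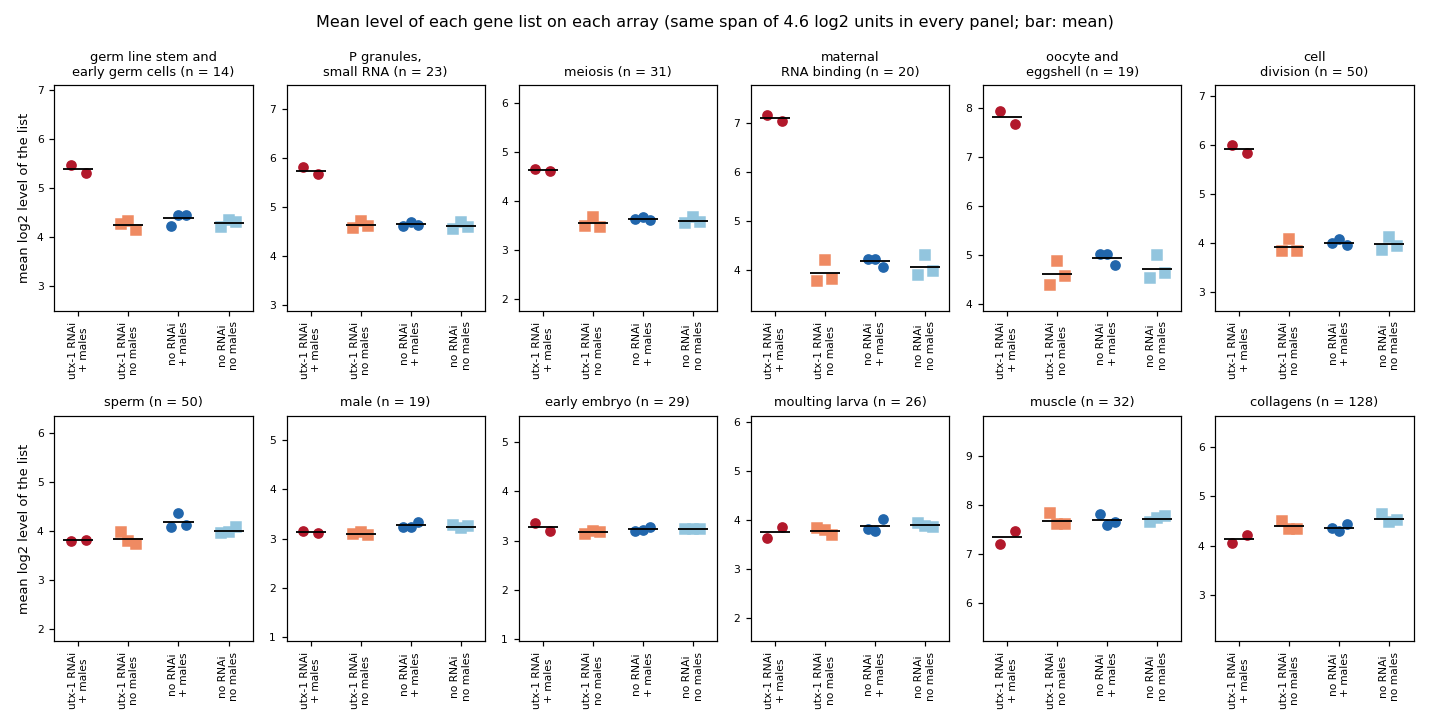
Mean log2 level of 12 gene lists on each of the 11 arrays, with 1 point per array, a bar at the mean of each group and the number of genes above each panel. The 2 arrays of utx-1 RNAi with males stand above all others in the 6 panels of the upper row, by about 1 unit for meiosis (4.65 and 4.61, against 3.48 to 3.69 without males) and about 3 units for maternal RNA binding (7.16 and 7.04, against 3.77 to 4.2), while the sperm, male, embryo and larva lists lie close together.

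The rises of these lists were not seen to the same extent without RNAi. There, 1 of 14 stem cell, 2 of 23 P granule, 0 of 31 meiotic, 1 of 20 maternal RNA, 2 of 19 eggshell and 1 of 50 cell division genes rose with males, against 5.61% of all genes. The interaction tests whether the effect of males differed between the comparisons. It was past the threshold upward for 8, 15, 23, 19, 15 and 44 genes of these 6 lists in that order, against 6.87% of all genes. Without an empty-vector group, knockdown of utx-1 and RNAi treatment as such cannot be told apart in that test. The interaction of gld-1 was 3.95 ± 0.32 (adjusted p = 7.83e-06) and that of spn-4 was 4.57 ± 0.26 (adjusted p = 1.59e-06). Some oocyte genes were nonetheless higher with males without RNAi. The translation factor gene iff-1 read 7.06, 6.65 and 4.93 with males, against 3.80, 4.74 and 4.33 without males (adjusted p = 0.0162), and trcs-1 rose there by 0.84 (adjusted p = 0.0443). Both remained below the arrays of utx-1 RNAi with males, where iff-1 read 9.24 and 9.55 and trcs-1 read 7.92 and 7.68.

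Several lists named for somatic functions held members that moved with the germ line lists. In the heat shock list 4 of 12 genes rose, beside 12.4% of all genes. Among them sip-1, of the small heat shock family, read 11.05 and 10.71 with males, against 3.46, 4.45 and 3.91 without males. That is 6.94 ± 0.37, and the other risers of the list gained at most 0.91. The list leaves out hsp-16.21, described further on, which rose by 1.73 ± 0.39. Among 220 C-type lectin genes 5 rose and 31 fell, and the risers with the largest gains were clec-87, clec-88 (5.5 ± 0.39) and clec-91 (4.80 ± 0.53). At its probe set with the smallest p, clec-87 read 9.51 and 9.26 with males, against 2.07, 3.24 and 2.77 without males. Among 73 cytochrome P450 genes cyp-31A5 and cyp-31A2, the second known in the making of eggshell lipids, rose by 1.48 ± 0.13 and 1.12 ± 0.14. The short-chain dehydrogenase gene dhs-11 rose by 1.49 ± 0.10. The gene tdc-1, which encodes a tyrosine decarboxylase of neurons and of sheath cells in the gonad, read 5.15 and 5.45, against 3.29, 3.22 and 3.12 without males (2.09 ± 0.12, adjusted p = 1.99e-07). It was the 1 riser among 38 neuronal genes. The phosphatase gene daf-18, which opposes insulin signalling, read 7.98 and 8.30, against 5.32, 5.68 and 5.47 without males (2.65 ± 0.15). Apart from hsp-16.21, which did not pass the interaction, the 9 genes named here passed it, with differences between effects of 1.15 to 6.21.

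Families with a germ line copy and a somatic or widely used copy gave a direct contrast. Of 10 germ line copies 8 rose and 0 fell, with a median of 2.90, and of 8 somatic copies 0 rose and 4 fell, with a median of -0.45. Without replicate 1 with males 8 germ line copies rose and 1 somatic copy fell. The germ line copy iff-1 rose by 5.26 ± 0.49, while iff-2 read 11.95 and 11.94 with males, against 11.98, 12.13 and 11.89 without males (-0.06 ± 0.09, adjusted p = 0.693). The Y-box genes cey-2 and cey-3 rose by 5.1 ± 0.30 and 4.77 ± 0.29, against values of 0.10 ± 0.08 for cey-1 and -0.13 ± 0.11 for cey-4. The translation initiation factor gene ife-3 read 7.21 and 7.20, against 5.69, 5.94 and 5.67 without males (1.44 ± 0.11). Its relative ife-2 fell by 0.46 ± 0.09, a call lost without replicate 1 with males (adjusted p = 0.0583).

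The same contrast appeared within the machinery of mitochondria. The ATP synthase gene asb-1 read 7.69 and 7.41 with males, against 6.11, 6.55 and 6.2 without males (1.26 ± 0.18), while asb-2 read 8.75 and 8.99, against 9.46, 9.47 and 9.29 without males (-0.53 ± 0.11, adjusted p = 0.0045). The call of asb-2 ended without replicate 1 with males (adjusted p = 0.0826). In complex III, ucr-2.3 rose by 1.57 ± 0.17 and ucr-2.1 fell by 0.56 ± 0.08 (adjusted p = 0.000353). A further pair in complex I and one in the ribosome were picked after their values were seen. The complex I gene nduf-2.2 read 5.92 and 5.76, against 3.83, 3.97 and 3.92 without males (1.94 ± 0.14), while its paralogue gas-1 fell by 0.55 ± 0.10. Among 75 ribosomal protein genes 2 rose and 0 fell, with a median of -0.01, and 1 rose without any one of the 5 arrays. The larger rise was that of rpl-11.1, which read 10.27 and 10.34, against 7.95, 8.41 and 8.08 without males (2.16 ± 0.18). Its paralogue rpl-11.2 had a value of -0.12 ± 0.08 (adjusted p = 0.362). In 5 of the pairs, those of asb, ucr-2, rpl-11, ife and nduf-2, the copy without a rise lies on the X chromosome and the copy that rose lies on an autosome. The autosomal germ line copies ife-1 (0.24, adjusted p = 0.0795) and ife-5 (0.28, adjusted p = 0.361) did not pass, and the rpl-11 and nduf-2 pairs are those picked after their values were seen.

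**Figure D2:**
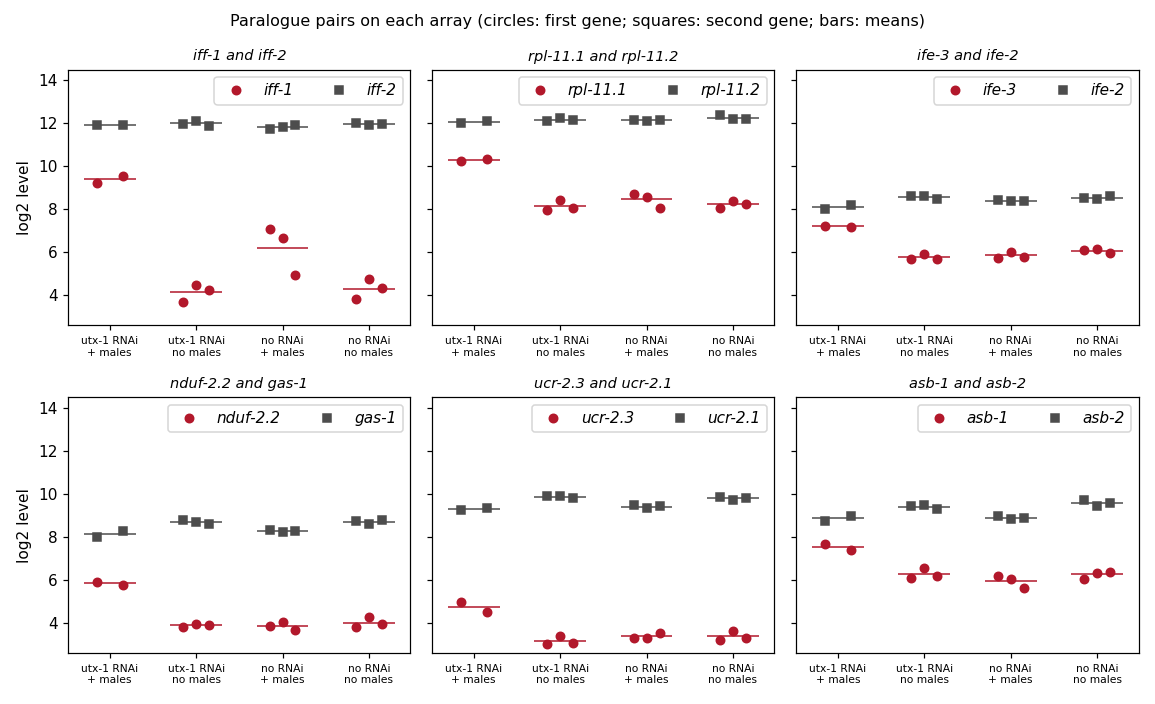
Log2 level of 6 pairs of related genes on each array, with the first gene of each panel as circles, the second as squares, and bars at group means. Levels of different probe sets are not on a common scale, so only the differences between groups within a gene can be read: each circle gene is highest on the 2 arrays of utx-1 RNAi with males, from 1.26 for asb-1 to 5.26 for iff-1, and the squares lie from -0.56 for ucr-2.1 to -0.06 for iff-2.

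Genes of other sources of RNA did not follow the germ line lists. Wild-type males were taken off before lysis. Of 50 sperm genes 2 rose and 1 fell, with a median of -0.07 (0.11 with centring on somatic genes) and a mean level of 3.80 and 3.83 with males, against 3.99, 3.80 and 3.74 without males. None of the 23 major sperm protein genes or of spe-9, fer-1 and gsp-3 passed limma's threshold, with differences of -0.31 to 0.20. Sperm-list risers were spe-11 (1.05 ± 0.24), whose product is a sperm factor of the embryo, and spe-44 (0.52 ± 0.12), a regulator of sperm genes. Both lost their call without replicate 1 with males (adjusted p = 0.131 and 0.0637), as did the fall of spe-27 (adjusted p = 0.0899). Of 19 male genes 0 rose and 0 fell, with a median of 0.01, and the seminal protease gene try-5 read 5.30 and 5.14, against 5.95, 5.11 and 5.89 without males (-0.43 ± 0.21, adjusted p = 0.174). Without replicate 3 with males 1 male gene rose, without replicate 2 without males 1 rose and 1 fell, and with centring on somatic genes 5 rose.

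Counts of embryonic and larval genes were low but moved with the scaling. Of 29 genes switched on in the early embryo 2 rose and 2 fell, with a median of 0.08. The riser with the largest gain was lin-26, an epidermal and gonadal fate gene, which read 7.26 and 7.37, against 6.32, 6.49 and 6.12 without males (1.01 ± 0.13, adjusted p = 0.000192). The rise of die-1 by 0.36 ended without replicate 1 with males (adjusted p = 0.0575), as did the falls of nob-1 (0.283) and unc-130 (0.176). The call of nob-1 also ended without replicate 3 without males, and that of unc-130 without replicate 1 without males or replicate 3 with males. Without replicate 3 with males 7 of the 29 rose, and 4 rose without replicate 3 without males. Centring on somatic genes gave 10 rises and 0 falls, and with arrays centred on their median 2 rose and 6 fell. Among the 5 embryo markers end-1, end-3, med-1, hlh-1 and tbx-37 the differences lay between -0.17 and 0.33 and 0 passed. Of 26 moulting genes 0 rose and 2 fell, nas-37 and let-653, at -0.45 and -0.37. Those calls ended without replicate 1 with males (adjusted p = 0.263 and 0.461), and with it left out 2 other moulting genes rose. No moulting gene fell without replicate 1 or replicate 2 without males. The moulting list had 4 rises and 0 falls with arrays centred on somatic genes, and with arrays centred on their median 7 fell.

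Large rises and large falls lay at different levels. Probe sets were grouped by their mean over the 6 arrays without RNAi. Of the 720 rises over 1, 481 lay below 4 on the log2 scale, near the array medians of 3.77 to 3.97 in the 5 arrays compared, and 18 at 8 or above. Of the 118 falls over 1, 6 lay below 4 and 22 at 8 or above. Probe sets below 4 made up 11627 of the 22548 tested. A probe set near the floor of an array has little room to fall. In the bin from 6 to 8 the numbers were 55 rises and 58 falls over 1 among 3996 probe sets. Over changes of any size the bin below 4 had the lowest share of rises, 8.08%, against 18.1% from 4 to 6 and 15.9% from 6 to 8. From 6 to 8 there were 634 rises and 733 falls, and at 8 or above 335 and 383 among 2720 probe sets.

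The shares of rises and falls also varied by chromosome. The X chromosome is largely silent in the hermaphrodite germ line until late oogenesis, and genes used there lie mostly on autosomes. Of 2352 X-linked genes 4.76% rose and 15.8% fell, against 13.6% and 8.54% of 14715 autosomal genes. The X chromosome held 13.8% of the genes, 5.3% of the rises, 3.08% of the rises over 1 and 22.9% of the falls. Chromosome I had the highest share of rises, 19.8%, and chromosome III the next, 17.2%. With arrays centred on somatic genes 13.1% of X-linked genes rose and 6.8% fell, against 23.9% and 3.54% of autosomal genes, so that rises outnumbered falls on the X chromosome too. Centring on the array median gave shares of 3.1% higher and 35.5% lower on the X chromosome, and 23.4% of autosomal genes were lower. Without RNAi the shares were closer, with 6.25% of X-linked genes higher and 8.72% lower, against 5.52% and 6.59% of autosomal genes.

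X-linked and autosomal rises were also set beside the comparison without RNAi. Of the X-linked rises 50% also rose without RNAi and 17% passed the interaction upward, against 16.9% and 54.1% of 2001 autosomal rises. For the falls the shares were alike, since 40.1% of X-linked and 40.3% of autosomal falls also fell without RNAi. X-linked genes were brighter, with a median level of 4.36 without RNAi, against 3.89 for autosomal genes. Within the level bin from 6 to 8, 30.4% of X-linked genes fell, against 16.6% of autosomal genes. The gap was narrower from 4 to 6 (21.6% against 13.4%) and at 8 or above (21.8% against 13.9%). Leaving out replicate 1 with males lowered the shares to 1.79% higher and 3.83% lower on the X chromosome, against 8.31% and 1.87% on the autosomes. Without replicate 1 without males 9.74% of X-linked and 5.2% of autosomal genes fell. The difference between these shares was not tested.

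**Figure D3:**
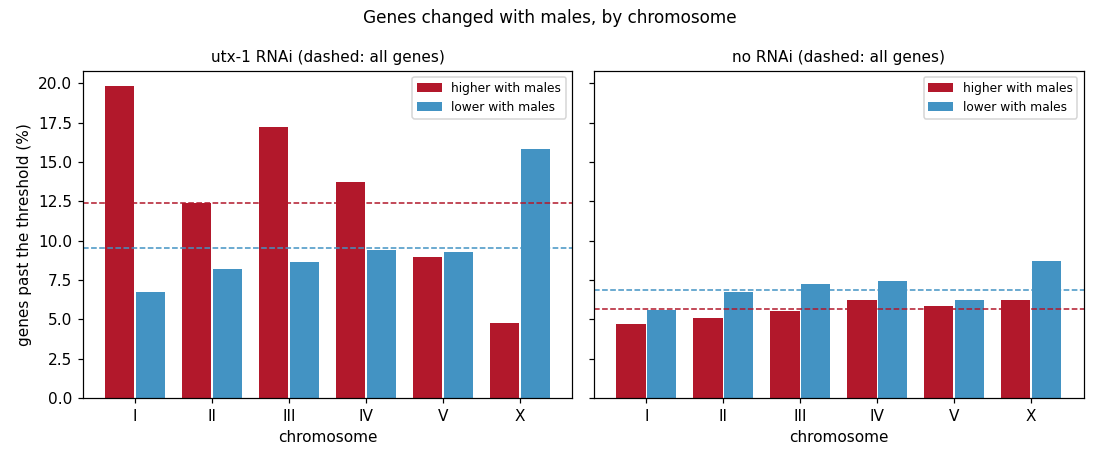
Percent of genes on each chromosome that were higher (red) or lower (blue) with males, under utx-1 RNAi on the left and without RNAi on the right, with dashed lines at the shares of all genes. Under utx-1 RNAi the X chromosome has the lowest share of rises (4.76%) and the highest share of falls (15.8%), and without RNAi its bars lie near the others (6.25% and 8.72%).

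Most of the deep falls, and few of the large rises, were also seen with males without RNAi. Both comparisons have separate arrays and share the estimate of the spread. Without RNAi 2661 probe sets changed (11.8%), 1275 higher (5.65%) and 1386 lower (6.15%). That count was 1362 without replicate 1 without males, and 1678 and 1524 without replicates 2 and 3 with males. Of the 2036 falls under utx-1 RNAi 769 also fell without RNAi, which is 37.8% of these falls and 55.5% of those without RNAi. Of the 118 falls over 1, 100 did (84.7%), and 7 passed the interaction downward. Of the 2671 rises 499 also rose without RNAi, which is 18.7% of these rises and 39.1% of those without RNAi. Of the 720 rises over 1, 68 did (9.44%) and 643 passed the interaction upward (89.3%). Opposite directions were rare, with 34 probe sets higher under utx-1 RNAi and lower without RNAi and 5 the other way round. Without replicate 1 with males 57.5% of the 440 falls also fell without RNAi, and 196 of the 1588 rises also rose.

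**Figure D4:**
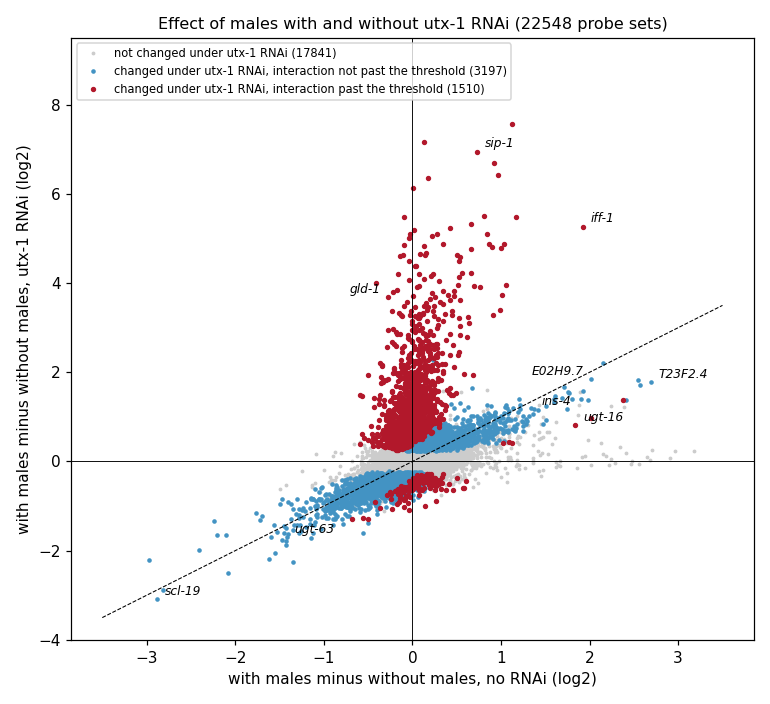
Effect of males on each probe set without RNAi (horizontal axis, log2) and under utx-1 RNAi (vertical axis, log2), with grey for probe sets not changed under utx-1 RNAi, blue for those changed with an interaction not past the threshold and red for those changed with an interaction past it. The red rises stand near 0 on the horizontal axis, such as gld-1 (-0.28 and 3.68), and the deep falls lie near the dashed line of equal effects, such as scl-19 (-2.88 and -3.09).

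The named falls below passed in both comparisons and did not pass the interaction. The gene scl-19, of the secreted SCP family, read 3.66 and 4.0 with males, against 7.28, 6.64 and 6.83 without males (-3.09 ± 0.34). The UDP-glucuronosyltransferase gene ugt-63 read 6.13 and 6.39, against 8.03, 8.00 and 7.87 without males (-1.70 ± 0.10, adjusted p = 2.36e-07). Without RNAi ugt-63 was at 6.56, 6.50 and 6.61 with males, against 7.99, 8.08 and 7.84 without males. The beta-carotene monooxygenase gene bcmo-1 read 3.27 and 3.44 with males, against 5.03, 5.33 and 4.67 without males. Y69H2.3 read 7.53 and 7.75, against 9.32, 9.28 and 9.20 without males (-1.63 ± 0.12, adjusted p = 1.53e-06). The gene hrg-7, which encodes a secreted protease that signals heme status, fell by 1.61 ± 0.23 and the lysozyme gene lys-2 by 1.61 ± 0.28. The calls of scl-19, ugt-63, bcmo-1, Y69H2.3, hrg-7, lys-2, dhs-26, C30G12.2 and ZK512.7 held in all 12 alternatives.

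Replicate 1 with males lay farther from the group without males than replicate 3 did for most falls. This was so for 96.6% of the 118 falls over 1 and for 1767 of all 2036 falls (86.8%), and for 535 of the 720 rises over 1 (74.3%). For the falls over 1 the median difference was -1.42 in replicate 1 and -0.96 in replicate 3, beside a median of -0.99 for the same probe sets without RNAi. The gene cpr-2, which encodes a cathepsin B-like protease, read 7.21 and 9.72 with males, against 10.64, 10.93 and 10.48 without males. The gene clx-1 read 7.40 and 9.58, against 11.12, 9.87 and 10.64 without males. In these genes replicate 3 lay much nearer to the worms without males. With replicate 1 with males left out, 6 calls among the largest falls ended, those of sdz-24 (adjusted p = 0.0711), Y16B4A.2 (0.0629), lips-11 (0.125), clx-1 (0.159), clec-61 (0.392) and cpr-2 (0.454). The calls of cpr-2 and clec-61 also ended without any one array of the group without males. For 94 of the 132 germ line and cell division genes that rose, replicate 1 was also the farther one, with median differences of 2.09 and 1.78.

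**Figure D5:**
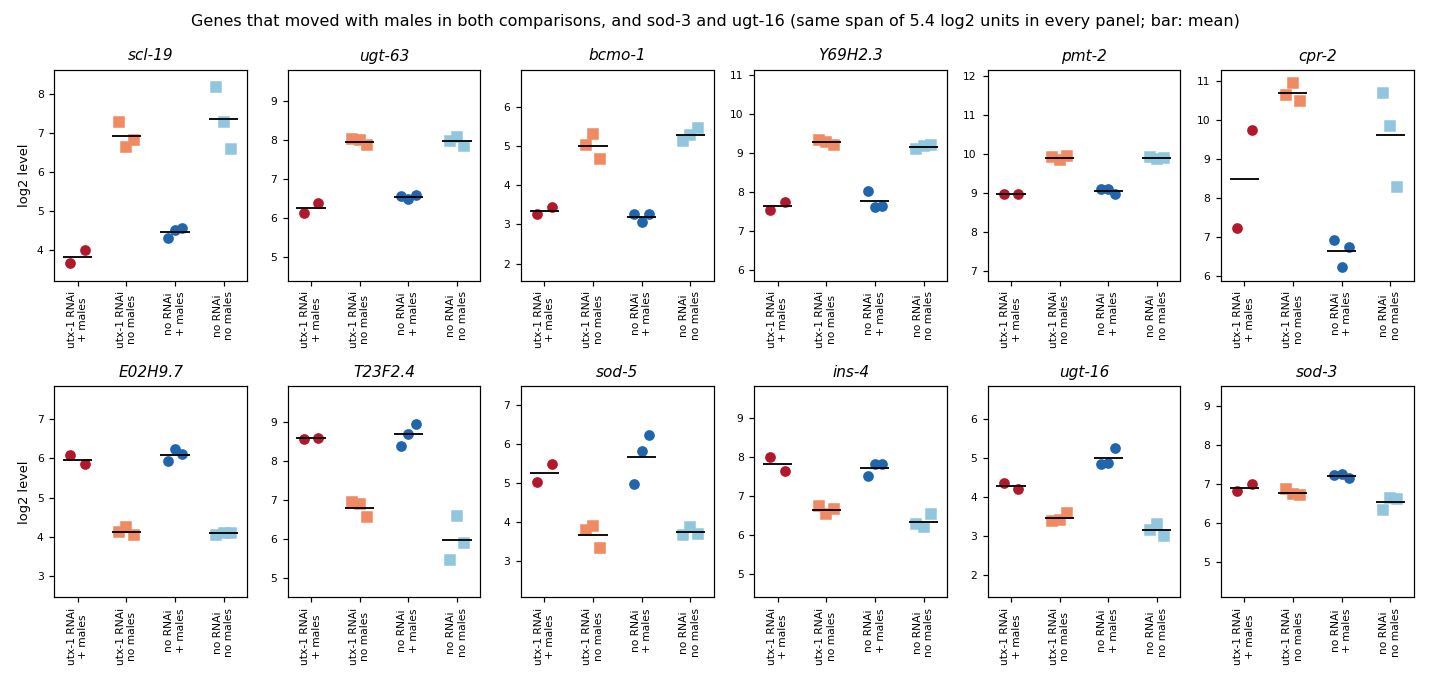
Log2 level on each array of 10 genes that moved in the same direction with males in both comparisons and of ugt-16 and sod-3, whose effects differed between them, with bars at group means and the same span in every panel. The falls of ugt-63 (6.13 and 6.39, against 7.87 to 8.03) and the rises of E02H9.7 (6.08 and 5.86, against 4.03 to 4.24) appear in both pairs of groups, and cpr-2 shows the gap between the 2 with-males arrays (7.21 and 9.72).

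Over 7 lists of somatic tissues 57 of 269 genes fell and 6 rose, beside 9.53% of all genes lower and 12.4% higher, and the count of falls was 14 without replicate 1 with males and 35 without replicate 1 without males. It was 120 with arrays centred on their median, 94 after a second quantile normalization and 32 with arrays centred on somatic genes. The genes used for that centring are members of these lists, so the last count is no independent check. The share of falls also depended on level. Of all probe sets 2.91% fell below 4, against 13.8% from 4 to 6, 18.3% from 6 to 8 and 14.1% at 8 or above. The muscle, intestine, neuron and somatic gonad lists averaged 5.71 to 9.71 without males. Whether these tissue falls exceed those of other genes at the same level was not tested. The germ line rises occurred on the same 2 arrays, and their part in these falls was not tested. Of 32 muscle genes 11 fell (34.4%) and 2 rose, with a median of -0.32, and the median stayed negative under each of the 12 alternatives (-0.44 to -0.14). The troponin gene tni-3 read 6.13 and 6.57, against 7.81, 7.43 and 7.33 without males (-1.18 ± 0.17). The body wall myosin gene unc-54 read 5.38 and 5.59, against 6.57, 6.15 and 6.29 without males (-0.85 ± 0.13). The other body wall muscle marker, myo-3, did not pass (-0.43, adjusted p = 0.0617). The adhesion gene zyx-1 fell by 0.59 ± 0.11, while the integrin gene pat-3 rose by 0.48 ± 0.09. The muscle falls numbered 3 without replicate 1 with males and 6 without replicate 1 without males.

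Cuticle collagens fell in 31 of 128 cases and rose in 0, with a median of -0.17. It became 0.02 with arrays centred on somatic genes, but these 128 collagens are among the 246 genes used for that centring. The adult collagen gene col-19 read 3.17 and 3.38 with males, against 4.58, 4.11 and 4.41 without males (-1.09 ± 0.14), and col-140 fell by 1.43 ± 0.23. The other epidermal marker, dpy-7, did not pass (-0.18, adjusted p = 0.535). Without RNAi 22 collagens fell, beside 6.86% of all genes. Under utx-1 RNAi 7 fell without replicate 1 with males and 20 without replicate 1 without males. Of 30 intestinal genes 6 fell (20.0%) and 3 rose (2 and 1 without replicate 1 with males, 3 falls without replicate 1 without males). Their median was -0.17 and became 0.02 with centring on somatic genes, which include this list. The gut esterase gene ges-1 read 6.24 and 7.09, against 8.08, 7.76 and 7.91 without males (-1.25 ± 0.23), and the gut calcium channel gene itr-1 fell by 0.60 ± 0.11. The intestinal marker elt-2 did not pass (-0.29, adjusted p = 0.153), nor did the neuron markers rab-3 (-0.23), snb-1 (0.06) and unc-119 (-0.23). The aspartyl protease gene asp-1 rose by 0.43 ± 0.08. Pharyngeal genes had 0 of 18 past the threshold in either direction, and without replicate 3 with males 2 fell. Of 38 neuronal genes 5 fell (13.2%), among them bas-1, an aromatic amino acid decarboxylase gene, by 0.97 ± 0.17, and 1 fell without replicate 1 with males. Of 18 genes of the somatic gonad 4 fell (22.2%), 1 without replicate 1 of either group and 2 without replicate 3 without males.

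Neuropeptide genes were below the shares of all genes in both directions, with 6 of 83 higher (7.23%) and 5 lower (6.02%). With arrays centred on their median 23 were lower, and leaving out single arrays also moved the counts (1 and 0 without replicate 1 with males, and up to 6 and 8 without any other array). Yolk protein genes did not follow the oocyte receptor. Of 5 vit genes 0 rose and 0 fell, with a range of -0.59 to 0.27, although 2 rose with centring on somatic genes or a trended prior. Intestinal yolk is taken up by oocytes through RME-2. The gene vit-2 read 12.00 and 12.06, against 11.81, 11.81 and 11.93 without males (0.18 ± 0.07, adjusted p = 0.111), and vit-6 had 0.27 ± 0.10 (adjusted p = 0.0749).

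Detoxification and lipid genes gave many falls, beside 9.53% of all genes and 13.8% to 18.3% of probe sets in the level bins from 4 up. Of 64 UDP-glucuronosyltransferase genes 24 fell and 8 rose, of 73 cytochrome P450 genes 21 fell and 6 rose, and of 43 glutathione S-transferase genes 11 fell and 1 rose. Of 30 short-chain dehydrogenase genes 9 fell and 4 rose. Without replicate 1 with males the falls numbered 8, 6, 5 and 1 in the same order. Without RNAi they numbered 16, 15, 9 and 6. The P450 gene cyp-29A4 read 3.91 and 3.97 with males, against 5.09, 4.83 and 5.15 without males (-1.08 ± 0.12), and gst-26 fell by 0.97 ± 0.14. Of 39 lipid genes 9 fell and 0 rose, 5 without replicate 1 with males. The lysosomal lipase gene lipl-1 read 5.43 and 6.01, against 7.31, 7.02 and 7.42 without males (-1.52 ± 0.24), and lipl-5 fell by 1.07 ± 0.16. The list of propionate breakdown, vitamin B12 and phosphatidylcholine genes had 8 falls and 0 rises among 21 (2 falls without replicate 1 with males). With arrays centred on somatic genes the medians of the cytochrome P450, glutathione S-transferase, lipid and propionate lists turned positive (0.02 to 0.06), and that of the glucuronosyltransferases stayed at -0.07. In the propionate list the methyltransferase gene pmt-2, of phosphatidylcholine synthesis, read 8.98 and 8.97, against 9.92, 9.84 and 9.94 without males (-0.92 ± 0.08, adjusted p = 3.27e-06).

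Counts for immune and core lists are given beside 9.53% of all genes lower and 12.4% higher. In the level bins from 4 up 13.8% to 18.3% of probe sets were lower. Of 34 lysozyme and saposin genes 8 fell and 2 rose, including lys-8 (-0.98 ± 0.13), and 3 fell without replicate 1 with males. They numbered 4 without replicate 1 and 5 without replicate 3 without males. Of the lectins 31 fell (14.1%), among them clec-65 (-1.29 ± 0.18). Another was clec-223, which read 5.11 and 5.32 with males, against 6.44, 6.46 and 6.51 without males (-1.25 ± 0.12). The lectin falls numbered 14 without replicate 1 with males, and with centring on somatic genes the medians of lectins and lysozymes turned to 0.09. Respiratory chain genes fell in 15 of 44 cases, rose in 4 and had a median of -0.23. The risers included the germ line copies asb-1, ucr-2.3 and nduf-2.2. The falls numbered 3 without replicate 1 with males and 7 without replicate 1 or replicate 2 without males. Without RNAi 24 of the 44 fell and 0 rose, beside 6.86% of all genes lower. Proteasome genes had 6 of 33 higher (18.2%) and a median of 0.20. However, 0 to 2 were higher without any one of 4 arrays (both with males, and replicates 1 and 3 without males). The count was 20 with arrays centred on somatic genes. Of 14 genes of the unfolded protein response 1 fell and 0 rose, with a median of -0.12 (0.06 with centring on somatic genes).

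Antimicrobial peptide genes stood out among the rises shared with worms without RNAi. Of 15 genes 8 rose and 0 fell, with a median of 0.82, beside 12.4% of all genes higher. Without RNAi 7 rose with a median of 0.79, beside 5.61% of all genes. The caenacin gene cnc-1 read 7.60 and 6.53 with males, against 5.38, 4.43 and 4.77 without males (2.2 ± 0.43, adjusted p = 0.00313). Its neighbour cnc-4 rose by 1.2 ± 0.25, and the nlp peptide genes nlp-29, nlp-30 and nlp-31 by 0.82, 0.89 and 0.83. Without replicate 1 with males 1 of the 15 rose, and the calls of cnc-1 (adjusted p = 0.0577), cnc-4 (0.0797), nlp-29 (0.104) and nlp-31 (0.107) ended. Without replicate 2 without males 5 rose. The interaction of the list had 0 genes past the threshold in either direction.

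The insulin-like gene ins-4, an agonist of the insulin receptor, read 8.00 and 7.64 with males, against 6.74, 6.55 and 6.67 without males (1.17 ± 0.14, adjusted p = 7.41e-05). The same gene rose by 1.38 without RNAi. Of 24 insulin-like genes 3 rose and 0 fell (12.5% higher, beside 12.4% of all genes). With arrays centred on somatic genes 7 rose, with arrays centred on their median 1 rose and 4 fell, and 1 rose without replicate 1 with males or replicate 3 without males (with 2 lower in the second case). The calls of ins-22 (adjusted p = 0.157) and ins-23 (0.327) ended without replicate 1 with males and without most other single arrays. Small heat shock genes hsp-12.3 and hsp-12.6 rose by 0.91 ± 0.17 and 0.60 ± 0.13. The copper and zinc superoxide dismutase gene sod-5 read 5.01 and 5.49 with males, against 3.79, 3.91 and 3.33 without males (1.58 ± 0.29, adjusted p = 0.00229). E02H9.7 read 6.08 and 5.86 with males, against 4.11, 4.24 and 4.03 without males (1.84 ± 0.11), and rose by 2.02 without RNAi. T23F2.4 read 8.55 and 8.59, against 6.95, 6.90 and 6.55 without males (1.77 ± 0.26). The tyrosine aminotransferase gene tatn-1 rose by 1.56 ± 0.23 and the uridine phosphorylase gene upp-1 by 1.40 ± 0.17. In these genes neither with-males array overlapped the arrays without males, as was so upward for 22.1% of all probe sets. The rise of hsp-16.21 (1.73 ± 0.39) ended without replicate 3 with males (adjusted p = 0.075). Those of nep-14 (0.345), sri-39 (0.328) and C13G3.1 (0.164) ended without replicate 1 with males, and those of nep-14 and sri-39 also without replicate 1 or 3 without males.

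A smaller number of effects of males were lower under utx-1 RNAi than without RNAi. The interaction was past the threshold downward for 277 probe sets (1.23%), against 1448 upward (6.42%). In all 1725 passed, and 1137 did without replicate 1 with males. The superoxide dismutase gene sod-3, a target of the FOXO factor DAF-16, read 6.80 and 7.0 with males, against 6.85, 6.74 and 6.71 without males (0.13 ± 0.10, adjusted p = 0.425). Without RNAi sod-3 rose by 0.68, and its interaction was -0.55 ± 0.14 (adjusted p = 0.0338). The glucuronosyltransferase gene ugt-16 rose by 0.82 ± 0.13 under utx-1 RNAi and by 1.84 without RNAi (interaction -1.02 ± 0.18, adjusted p = 0.00282). The unfolded protein response factor gene xbp-1 had -0.27 ± 0.12 under utx-1 RNAi and rose by 0.39 without RNAi (interaction -0.66 ± 0.17, adjusted p = 0.0306). For unc-54 the interaction was -0.77 ± 0.17 (adjusted p = 0.015). The fatty acid elongase gene elo-3 read 6.24 and 6.34 with males, against 6.95, 6.93 and 6.88 without males (-0.63 ± 0.09), beside -0.00 without RNAi (interaction -0.63 ± 0.12, adjusted p = 0.00646). Of the tissue lists, muscle had 2 genes, pharynx, neurons and somatic gonad 1 each, and collagens, intestine and yolk 0 past the interaction downward, beside 1.21% of all genes.

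Genes of histone H3 methylation and of long life closed the comparison. Of 19 genes that write or remove methyl groups on lysines 27 and 4 of histone H3, 7 rose (36.8%, beside 12.4% of all genes) and 1 fell, with a median of 0.28, and utx-1 is among the risers. Centring on somatic genes gave 15 rises and 0 falls. The COMPASS subunit gene cfp-1 read 7.09 and 7.12 with males, against 6.12, 6.30 and 5.92 without males (0.99 ± 0.11), and the H3K4 methyltransferase gene set-2 rose by 0.69 ± 0.10. The Polycomb gene mes-3, which acts in the germ line, read 7.65 and 7.49, against 6.92, 6.99 and 6.93 without males (0.62 ± 0.08). All 3 passed the interaction, and which cells gave their rises was not tested. The demethylase gene jmjd-3.1, a relative of utx-1, had 0.16 ± 0.12 (adjusted p = 0.404). The fall of set-30 ended without replicate 1 with males (adjusted p = 0.102). Of 22 longevity genes 3 rose (13.6%), among them daf-18, and 2 fell (9.09%), close to the 12.4% and 9.53% of all genes, with a median of 0.07. The rises numbered 7 with arrays centred on somatic genes and the falls 6 with arrays centred on their median. The retinoblastoma gene lin-35, which acts in the germ line and the soma, rose by 0.99 ± 0.13 at one probe set and by 0.55 ± 0.12 at the other, whose call ended without replicate 3 with males.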

How the data were processed

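Total RNA of whole hermaphrodites was measured on Affymetrix arrays, 1 array per sample. Per the submitters' processing notes the authors used RMA, and the deposited values are log2 expression levels. No source used here gives its version. Counting depth does not apply to arrays, and the precision is limited by the 2 and 3 arrays of the comparison.

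Of 22625 probe sets 77 array controls were left out. Of the other 22548, 20766 carried 1 gene symbol in the platform annotation, 887 several and 895 none, and 20701 symbols were matched to a RefSeq gene table (assembly WBcel235), which also gave the chromosome of each gene. Where a gene is counted, its brightest probe set stands for it (17118 genes). Lists held 36 further genes with no probe set. Promoter sequences were not analysed here.

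The fit used limma 3.58.1 (lmFit and eBayes, run in R 4.3.3) with a mean for each group of the 11 arrays. The contrasts were males minus no males under utx-1 RNAi, the same without RNAi, and their difference, called the interaction. Benjamini-Hochberg adjustment ran over the 22548 probe sets with a threshold of 0.05, and the code was tested on simulated data. Named genes were the largest rises and falls past the threshold, the genes with the smallest p in each list and a few markers, and some further genes were added after their values were seen. Members and lists were chosen with earlier results of these data known.

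Replicate numbers come from the sample titles. For 2 of the utx-1 RNAi arrays another label gives a different number. The samples were not treated as paired in the main fit. Deviations of same-numbered arrays from their group means correlated at -0.323 for replicate 1 and -0.085 for replicate 3 under utx-1 RNAi. In a group of 2 arrays the deviations mirror each other, so these values cannot decide whether the numbers pair the samples. Alternatives were a trended and robust prior, the 5 arrays alone, 3 other scalings, removal of dim probe sets (below 3.88), a replicate block, the mean over the probe sets of a gene for the list counts, and leaving out each array.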

Additional observations from a re-analysis of the deposited data

Results flagged for a closer look

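The named genes below had an effect of males that differed between worms given utx-1 RNAi and worms without RNAi, by the interaction of the limma fit with Benjamini-Hochberg adjustment over all probe sets. Values are the effect under utx-1 RNAi minus that without RNAi, on the log2 scale. The comparison under utx-1 RNAi rests on 2 arrays with males, and no group with an empty RNAi vector was named.

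Among early germ line genes the difference was 1.40 for glp-1, 3.95 for gld-1, 3.32 for daz-1, 0.67 for fbf-1 and 0.76 for nos-3. It was 4.33 for wago-1, 3.23 for deps-1, 2.08 for hrde-1, 1.82 for pgl-3 and 1.70 for meg-1. Meiotic genes gave 2.50 for him-3, 2.51 for htp-3, 1.8 for syp-2 and 1.15 for spo-11. Oocyte genes gave 4.57 for spn-4, 3.40 for mex-1, 4.52 for puf-11 and 3.85 for pos-1. They were 6.13 and 4.74 for the 2 probe sets of cpg-1, 5.57 for cbd-1, 5.05 for rme-2, 4.50 for egg-1 and 4.25 for trcs-1. The lectin genes gave 5.77 and 5.45 for the 2 probe sets of clec-87, 4.69 for clec-88 and 3.80 for clec-91, and sip-1 gave 6.21 and 6.44 at its 2 probe sets.

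Cell division and chromatin genes gave 3.70 for cyb-3, 4.41 for mcm-7, 3.19 for mcm-5, 2.41 for air-2, 3.56 for hil-5, 3.14 for hil-4, 2.37 for hcp-3 and 1.22 for htz-1. The germ line copies of gene families gave 3.34 for iff-1, 1.58 for asb-1, 1.94 for rpl-11.1, 2.1 for nduf-2.2, 1.57 for ucr-2.3, 4.82 for cey-2, 4.11 for cey-3 and 1.66 for ife-3. Further positive differences were 2.85 for daf-18, 1.86 for tdc-1, 1.45 for cyp-31A5, 1.15 for cyp-31A2, 1.56 for dhs-11, 1.22 for lin-26, 0.39 for die-1 and 0.68 for lin-35. Those of histone H3 methylation were 2.37 for utx-1 at its brighter probe set, 0.87 for set-2, 0.56 for mes-3 and 0.90 for cfp-1.

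Negative differences were -0.77 for unc-54, -0.63 for elo-3, -1.02 for ugt-16, -0.55 for sod-3 and -0.66 for xbp-1. In sod-3 and xbp-1 the change passed the threshold without RNAi and not under utx-1 RNAi, and the difference itself passed in both.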

How the results depend on the processing

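Leaving out 1 array gave 2028 to 4379 changed probe sets under utx-1 RNAi, 1588 to 2546 higher and 440 to 2015 lower, with the lowest value of each without replicate 1 with males. It gave 1137 to 1706 probe sets past the interaction, 1362 to 2048 changed without RNAi, 127 to 133 germ line and cell division genes higher, and 14 to 66 somatic tissue genes lower. The share of rises over 1 past the interaction was 85.6% to 91.9%, and that of falls over 1 also lower without RNAi was 79.9% to 95.2%. Centring arrays on their median gave 7565 changed probe sets, 5553 of them lower, and 120 somatic tissue genes lower. Centring on somatic genes gave 4995 higher and 832 lower probe sets, 32 somatic tissue genes lower, and shares of 83.4% and 91.7%. A second quantile normalization gave 3238 lower probe sets and 94 somatic tissue genes lower. Without dim probe sets 1100 passed the interaction, and 75 germ line and cell division genes were higher since fewer were tested. The share of rises over 1 past the interaction was 82.9%. A gene dim elsewhere could clear that cutoff through its level with males under utx-1 RNAi. One such gene was cbd-1, at 8.44 there and 3.15 on average without RNAi. The 75 genes and the 82.9% are therefore no independent check. With a replicate block 3564 probe sets changed under utx-1 RNAi and 1303 passed the interaction, and 1552 changed without RNAi. The 3 shares of rises and falls over 1 were tried under these settings after the data had been seen. Of 126 named probe sets past the threshold 97 kept their call in each alternative run and 29 lost it in at least 1, 27 of them without replicate 1 with males. Signs turned for 4 named probe sets that were not past the threshold. That of iff-2 was -0.11 to 0.00 with 1 array left out and 0.12 with centring on somatic genes, and that of cey-4 was -0.30 to 0.04 and 0.05. That of rpl-11.2 became 0.07 with centring on somatic genes and that of cey-1 -0.02 with centring on the median. For each of these results the cause was not tested beyond the construction of the alternative. Many probe sets lie near the floor of the arrays, which limits what can be said of falls there.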
